A study of Mus musculus with 5 samples.

Results

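The cells described here are hepatocytes of mice on a high fat diet (HFD), divided within each mouse by whether an mRNA molecule of Plin2 or G0s2 was found in them. They were chosen by measured values. Each cell of HFD mice 2 and 3 was thinned at random to 1532 unique molecular identifiers (UMIs, the tags that count captured mRNA molecules), and a cell with 1 or more UMIs of Plin2 or G0s2 among those drawn was called positive, while a cell with 0 for both was called negative. Of the 233 cells of these 2 mice, 58 held fewer UMIs than that and were dropped. The other 175 comprised 108 positive and 67 negative cells, among 454 cells of 5 mice in all.

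Drop-seq, a droplet method that gives each captured mRNA a cell barcode and a UMI, was applied to hepatocytes of male C57BL/6J littermates. The mice were 8 weeks old when they were divided, and 12 weeks of feeding followed, on the regular diet (LFD, 2 mice) or on HFD (3 mice). Each library came from 1 mouse, 0 barcodes were shared between libraries, and HFD mouse 3 was inferred from the form of its raw-read name to come from a separate sequencing run. HFD mouse 1 gave only 5 cells and entered no main comparison.

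Plin2 encodes perilipin 2, a protein of the lipid droplet surface that is abundant in fatty hepatocytes. G0s2 encodes an inhibitor of adipose triglyceride lipase (Pnpla2), the enzyme that begins the breakdown of stored triglyceride. Both genes are known as targets of the fatty acid sensor PPAR alpha and of other nuclear receptors in liver, and both are linked to steatosis. Hepatocytes also differ along the lobule, from the periportal to the pericentral end, in urea synthesis, drug metabolism and lipid handling.

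Plin2 (ENSMUSG00000028494.12) lies on the minus strand at chr4:86648386-86670060 of mm10, and G0s2 (ENSMUSG00000009633.3) on the minus strand at chr1:193272161-193273217 (GENCODE vM21). The 250 bases upstream of each RefSeq start site are shown because these 2 genes define the classes, and their promoters were searched for letters that nuclear receptors and the basal machinery are known to read. They are RefSeq sequence of GRCm38.p6, chr4:86670060-86670309 and chr1:193273189-193273438, both read on the minus strand. RefSeq places the start of G0s2 inside the GENCODE gene, so that 29 bases of its window lie within the coordinates given above, as does 1 base of the Plin2 window. Capitals mark a match to the nuclear receptor core motif AGGTCA, here on the opposite strand.
Plin2: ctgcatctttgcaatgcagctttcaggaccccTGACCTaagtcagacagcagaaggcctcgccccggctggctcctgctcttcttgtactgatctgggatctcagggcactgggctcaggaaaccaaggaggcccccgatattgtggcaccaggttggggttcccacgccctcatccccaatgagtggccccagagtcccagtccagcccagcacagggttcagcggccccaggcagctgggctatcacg
G0s2: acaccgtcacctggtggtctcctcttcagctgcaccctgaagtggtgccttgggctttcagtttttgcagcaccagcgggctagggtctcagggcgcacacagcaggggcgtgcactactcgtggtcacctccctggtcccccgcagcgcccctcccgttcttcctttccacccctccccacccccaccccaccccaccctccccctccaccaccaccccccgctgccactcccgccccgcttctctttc
The Plin2 match lies 218 to 213 bases upstream of the start. Of 32851 promoter windows searched on both strands, 14.0% held AGGTCA, 12.4% held the TATA box TATAAA and 0.0335% held the pair of cores AGGTCANAGGTCA, which contains AGGTCA. The G0s2 window held none of the 3, and the Plin2 window held only the core motif.

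In HFD mouse 2, 101 of 155 cells (65.2%, exact 95% binomial interval 57.1 to 72.6%) were positive, against 7 of 20 cells (35.0%, 15.4 to 59.2%) in HFD mouse 3. At the same 1532 UMIs, 41 of 120 cells (34.2%, 25.8 to 43.4%) were positive in LFD mouse 1 and 16 of 75 cells (21.3%, 12.7 to 32.3%) in LFD mouse 2. HFD mouse 2 thus stood above both LFD mice with no overlap of the intervals, while the interval of HFD mouse 3 overlapped theirs. Over 23 thinning draws the share ran from 58.1 to 67.7% in HFD mouse 2 and from 35.0 to 55.0% (median 40%) in HFD mouse 3, so the draw reported gave the lowest share of HFD mouse 3. At 1000 UMIs per cell the shares of these mice were 45.1% and 50%. In HFD mouse 1, 4 of 5 cells were positive. These shares follow from the rule and the diet difference in these genes is known from earlier results on the same cells, so no test is given. The intervals cover counting error only.

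A positive call rested mostly on 1 molecule. In HFD mouse 2, 65 of the 101 positive cells held 1 drawn UMI of the pair, 19 held 2 and 17 held 3 or more, with at most 6. In HFD mouse 3, 5 of the 7 positive cells held 1, 1 held 2 and 1 held 3. Members just inside the rule therefore had 1 drawn UMI and those just outside had 0. The plot of UMIs per thinned cell shows the same steps in the LFD mice.

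**Figure D1:**
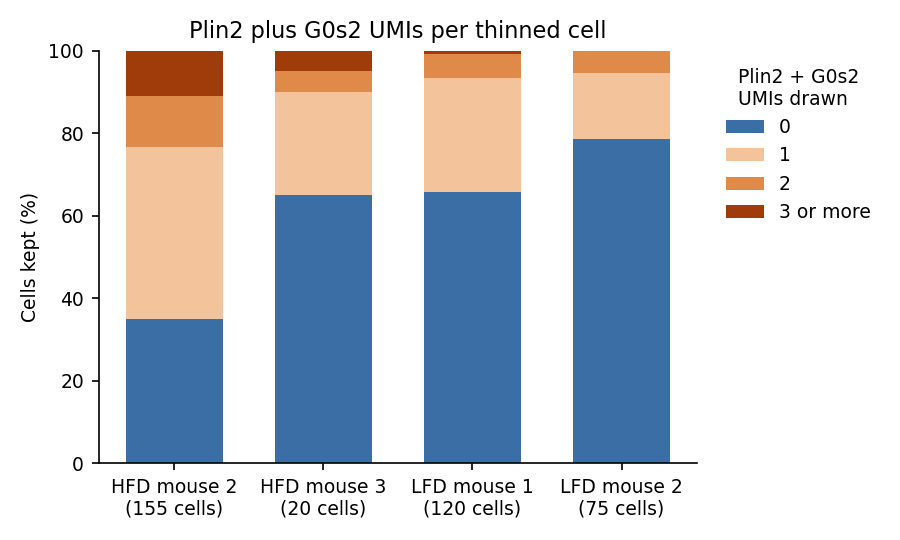
Plin2 plus G0s2 UMIs drawn per cell, as a percentage of the cells kept in each mouse after thinning to 1532 UMIs (cells in brackets under each bar). Cells with 0 drawn are the negative class, 54 of 155 in HFD mouse 2 and 13 of 20 in HFD mouse 3, and 1 UMI is the most frequent positive state in each of the 4 mice.

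Plin2 and G0s2 divided the positive class of HFD mouse 2 into 3 parts of unequal size, with 40 cells positive for Plin2 only, 43 for G0s2 only and 18 for both. G0s2 was found in 18 of its 58 Plin2-positive cells and in 44.3% of its 97 Plin2-negative cells. In HFD mouse 3 the counts were 2, 3 and 2. In the LFD mice the positive class was mostly a Plin2 class, with 30 cells positive for Plin2 only, 7 for G0s2 only and 4 for both in LFD mouse 1, and 15, 0 and 1 in LFD mouse 2. Over all thinned cells, G0s2 stood at 312 CPM (a gene's UMIs scaled to a fixed total per library) in HFD mouse 2, 196 CPM in HFD mouse 3, 59.8 CPM in LFD mouse 1 and 8.70 CPM in LFD mouse 2. Plin2 stood at 366, 131, 212 and 165 CPM in the same order. G0s2 was thus higher in both HFD mice (6 UMIs in HFD mouse 3) than in both LFD mice. For Plin2 HFD mouse 3 was the lowest of the 4 in this draw, from only 4 drawn UMIs. In the UMIs left undrawn the order was another one. There Plin2 stood at 1026 and 351 CPM (8 and 5 UMIs) in positive and negative cells of HFD mouse 3. It stood at 326 and 189 CPM in those of LFD mouse 1 and at 147 and 208 CPM in those of LFD mouse 2. The place of HFD mouse 3 in Plin2 thus rested on few UMIs and on the draw.

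How far the classes differ in the 2 genes was read from the UMIs that the thinning had left undrawn, which took no part in the call. In HFD mouse 2, undrawn Plin2 stood at 548 CPM (exact 95% Poisson interval 454 to 654) in positive and 230 CPM (155 to 328) in negative cells, a ratio of 2.39. In HFD mouse 3 it stood at 1026 CPM (443 to 2021, 8 UMIs) and 351 CPM (114 to 820, 5 UMIs), a ratio of 2.92 whose intervals overlap. Undrawn G0s2 stood at 357 CPM (283 to 446) in positive and 291 CPM (206 to 399) in negative cells of HFD mouse 2, a ratio of 1.23, and rested on 1 and 2 UMIs in HFD mouse 3. So in undrawn molecules the classes of HFD mouse 2 lay apart in Plin2, while their G0s2 intervals overlapped.

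Thinning is a random draw, and the draw moved these values. It was repeated to 23 draws in all, 20 of them added after the first results were seen, and draws share their cells. The Plin2 ratio of HFD mouse 2 ranged from 1.01 to 2.39 with a median of 1.53, so the draw reported here gave the highest value of the 23. Its G0s2 ratio ranged from 1.12 to 1.82 with a median of 1.36. Both genes were higher in the positive class of HFD mouse 2 in 23 of 23 draws, and in HFD mouse 3 Plin2 was higher in 20 and G0s2 in 14 of 23. Under the same rule LFD mouse 1 had 326 against 189 CPM of undrawn Plin2 (higher in 23 of 23 draws), and LFD mouse 2 had 147 against 208 CPM (higher in 12 of 23).

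**Figure D2:**
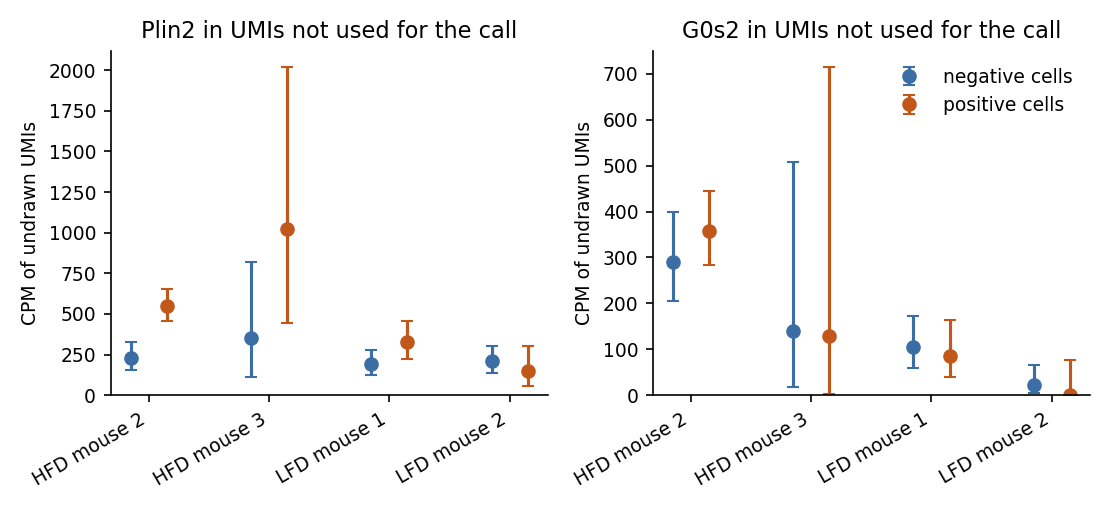
CPM of Plin2 (left) and G0s2 (right) among undrawn UMIs of positive and negative cells in each mouse, with exact 95% Poisson intervals for counting error. The intervals of the classes are apart for Plin2 in HFD mouse 2 only, at 548 against 230 CPM.

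The negative class was not free of the 2 mRNAs. Of the 54 negative cells of HFD mouse 2, 27 held an undrawn UMI of Plin2 or G0s2, as did 4 of 13 in HFD mouse 3. Within HFD mouse 2, undrawn Plin2 stood at 230 CPM in cells with 0 drawn, 547 CPM with 1, 545 CPM with 2 and 550 CPM (369 to 790) with 3 or more. Undrawn G0s2 stood at 291, 294, 429 and 493 CPM (322 to 723) in the same groups. For Plin2 the step was between 0 and 1 drawn UMI, and for G0s2 the intervals of all 4 groups overlapped.

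The classes held similar numbers of genes after thinning. Median genes per thinned cell were 667 in positive and 653 in negative cells of HFD mouse 2, and 639 and 646 in HFD mouse 3. Before thinning, positive cells held a median of 2881 UMIs against 2516 in HFD mouse 2 and 2802 against 1966 in HFD mouse 3. Mitochondrial UMIs, ribosomal RNA included, made up 5.55% and 5.66% in HFD mouse 2 and 5.47% and 4.84% in HFD mouse 3. Of positive cells, 45.5% (46 cells) lay on the pericentral side of the median cell in HFD mouse 2 against 57.4% (31 cells) of negative cells, and 42.9% (3 cells) against 53.8% (7 cells) in HFD mouse 3. By summed UMIs, pericentral genes went the other way, with 1.48% in positive and 1.36% in negative cells of HFD mouse 2. In HFD mouse 3 they made up 1.07% and 0.95%. Periportal genes made up 6.44% and 6.09% in HFD mouse 2 and 6.72% and 7.33% in HFD mouse 3. The part of depth and lobule position in the results below was not tested, except that counts without the deepest cells and within each side of the lobule axis are given with the other processing choices.

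All 15 hepatocyte markers, among them Alb, Apoa1 and Ttr, had UMIs in both classes of both HFD mice. Summed markers of macrophages reached at most 42.2 CPM in these 4 sums, those of sinusoidal endothelial cells 58.6 CPM and those of stellate cells 54.0 CPM, and T, NK and B cell markers were at 0. Cholangiocyte markers stood at 1613 and 1785 CPM in positive and negative cells of HFD mouse 2, and at 2052 and 2548 CPM in those of HFD mouse 3. Without Clu they reached at most 74.5 CPM. Adipocyte markers stood, in the same order, at 5326 and 5083 CPM in HFD mouse 2 and at 4751 and 5096 CPM in HFD mouse 3. Without Car3 they reached at most 54.0 CPM. Erythroid markers stood at 108 CPM (2 UMIs) in positive and 410 CPM (14 UMIs) in negative cells of HFD mouse 3, and their part in the results was not tested.

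For the comparison of all other genes, all UMIs of the cells were summed per mouse and class, Plin2 and G0s2 were left out, and limma voom was fitted to the 4 sums, keeping mouse as a block. The sums held 375362 and 213371 UMIs for positive and negative cells of HFD mouse 2 but only 18504 and 34136 for HFD mouse 3, where 1 UMI in the positive sum is 54.0 CPM. Of 1620 genes tested, 0 passed an adjusted p under 0.05 in limma voom (0.0%), and the smallest adjusted p was 0.705. At an unadjusted p under 0.05, 111 genes (6.85%) stood out, 42 higher and 69 lower in positive cells. limma-trend also called 0 genes, with 27 at an unadjusted p under 0.05. The same fit on other thinning draws called up to 16 genes. With 2 mice this fit has 1 residual degree of freedom.

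No gene is therefore said to have changed, and what follows gives values. The median log2 difference of positive over negative cells was 0.01 and its median SE was 0.33, with 836 genes (51.6%) above 0. For the 100 genes with most UMIs the median SE was 0.15 and the median size of the difference 0.11, and the largest was 0.86. The 2 mice shared little: 774 of 1620 genes (47.8%) had the same direction in both, and across genes Pearson's r between the mice was -0.02, or -0.10 over the 100 genes with most UMIs, where 48 had the same direction. These r describe genes of 2 pairs of libraries, and genes are not independent replicates.

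**Figure D3:**
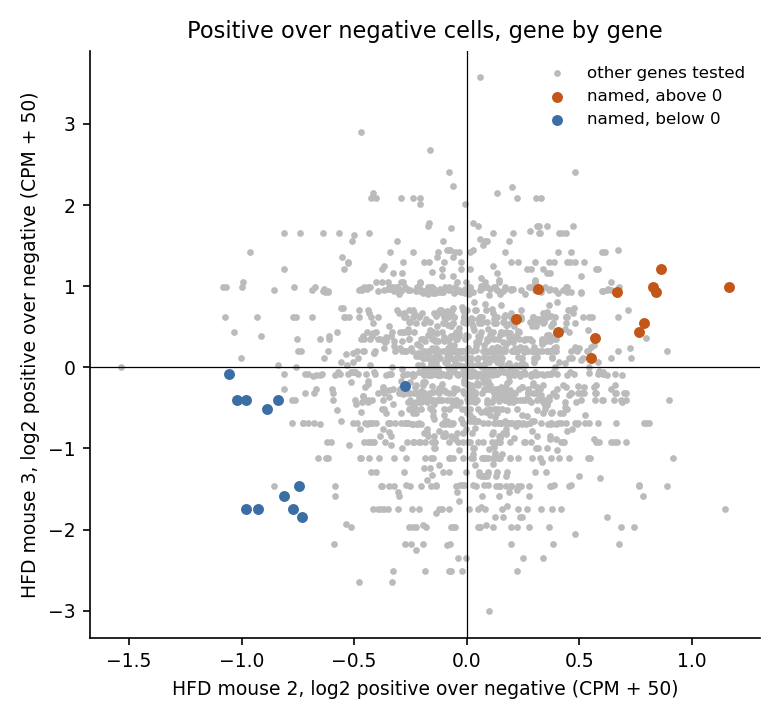
Log2 ratio of positive over negative cells (CPM plus 50) for each of 1620 genes in HFD mouse 2 (x axis) and HFD mouse 3 (y axis). The cloud has no slope (r = -0.02), and the 24 coloured genes lie in the corners because they were chosen for small p and the same direction in both mice.

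Of the 12 genes with the smallest p on the higher side, chosen among those with the same direction in both mice, Cyp2e1, Malat1, Mup20, mt-Nd1 and mt-Cytb had over 1000 UMIs each. Cyp2e1, the ethanol-metabolising cytochrome P450 of pericentral hepatocytes, stood at 2022 CPM in positive and 1345 CPM in negative cells of HFD mouse 2, and 1405 and 1084 CPM in those of HFD mouse 3. Its log2 difference was 0.55 (SE 0.15), and it was above 0 in 20 of 23 draws with a median of 0.43. Both positive sums were thus above both negative sums. By cells, the direction was the other one in both mice. Cyp2e1 was found in 55.4% of positive and 61.1% of negative thinned cells of HFD mouse 2. In HFD mouse 3 it was found in 42.9% (3 cells) and 76.9% (10 cells). Mean log values gave a log2 difference of -0.29. In the LFD mice Cyp2e1 stood at 1342 against 1317 CPM in LFD mouse 1 and 694 against 1531 CPM in LFD mouse 2.

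Malat1, a nuclear long noncoding RNA, stood at 7840.4 CPM in positive and 6289.5 CPM in negative cells of HFD mouse 2, and 23130.1 and 11835 CPM in those of HFD mouse 3. This is 0.51 (SE 0.14) on the log2 scale, with a median of 0.27 over draws and a value above 0 in 20 of 23. The mouse made more difference than the class, since both sums of HFD mouse 3 were above both of HFD mouse 2.

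Mup20 (darcin, a major urinary protein) stood at 20292 CPM in positive and 17416 CPM in negative cells of HFD mouse 2, and 8971 and 5918 CPM in those of HFD mouse 3, a log2 difference of 0.27 (SE 0.09) with a median of 0.13 over draws. Many members of its family are near-identical to each other, so the split of UMIs between those Mup genes is uncertain. Sc5d, a desaturase of cholesterol synthesis, stood at 439.6 CPM in positive and 258 CPM in negative cells of HFD mouse 2. In HFD mouse 3 it stood at 324 and 146 CPM, from only 6 and 5 UMIs. Its fitted log2 difference was 0.79 (SE 0.24), and the median over draws was 0.29. Eif4g1, a scaffold of the cap-binding translation initiation complex, stood at 157 CPM in positive and 65.6 CPM in negative cells of HFD mouse 2. In HFD mouse 3 it stood at 324 and 146 CPM, also from 6 and 5 UMIs. Its fitted log2 difference was 1.20 (SE 0.36), above 0 in 23 of 23 draws. By thinned cells the mice differed. Eif4g1 was found in 26.7% of positive and 9.26% of negative cells of HFD mouse 2, but in 14.3% (1 cell) and 30.8% (4 cells) in HFD mouse 3.

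For another 4 genes of the higher side the direction depended on the draw. Taok1, a stress kinase, had the largest log2 difference, 1.85 (SE 0.42), but 36 of its 55 UMIs in positive cells of HFD mouse 2 came from 1 cell, and it was above 0 in only 6 of 11 draws in which it was tested. Zfp36l1, which destabilises AU-rich mRNAs, had 1.06 (SE 0.28) and was above 0 in 13 of 23 draws. Cela1, an elastase, had 1.33 (SE 0.40) with a median of -0.15 over draws. Ppa1, a pyrophosphatase, had 0.91 (SE 0.29) with a median of -0.30. Of these 4, Taok1 and Cela1 passed the filter on low counts through the positive sums only, the class in which they are high.

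On the lower side, Apoc1, an apolipoprotein of VLDL and HDL particles, stood at 24349.8 CPM in positive and 29418 CPM in negative cells of HFD mouse 2, and 26048 and 30642 CPM in those of HFD mouse 3. Its log2 difference was -0.27 (SE 0.07), with a median of -0.08 over draws. Both positive sums lay below both negative sums in the draw reported. In the LFD mice Apoc1 stood at 23718 against 23336 CPM in LFD mouse 1 and 21541 against 23021 CPM in LFD mouse 2.

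Rpl37, a protein of the large ribosomal subunit, stood at 152 CPM in positive and 323 CPM in negative cells of HFD mouse 2, and 108 and 176 CPM in those of HFD mouse 3, with a log2 difference of -1.04 (SE 0.27). It was below 0 in 23 of 23 draws with a median of -0.53. Rbm17, a splicing factor, stood at 34.6 CPM in positive and 117 CPM in negative cells of HFD mouse 2, and 0 and 117 CPM in those of HFD mouse 3, and 13 of its 25 UMIs in negative cells of HFD mouse 2 came from 1 cell. The log2 difference of Rbm17 was -1.81 (SE 0.42). Rbm17 passed the filter on low counts through its negative sums only, the class in which it is high, and its place below 0 is no support. That holds for 7 of the 12 lower genes, namely Rbm17, Dstn, Mrps17, Mrpl54, Aldh5a1, Samm50 and Gtf2i, and for 44 of all 1620 genes tested.

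The remaining 9 lower genes had between 30 and 124 UMIs each over the 4 sums. Mrps17 (-1.37 (SE 0.38)) and Mrpl54 (-1.36 (SE 0.38)) encode mitochondrial ribosomal proteins. Aldh5a1 (-1.84 (SE 0.54)), Clybl (-1.03 (SE 0.30)) and Samm50 (-1.38 (SE 0.41)) encode mitochondrial proteins, the first a succinic semialdehyde dehydrogenase and the last a part of the outer membrane sorting machinery. Dstn (-1.62 (SE 0.41)) and Sept7 (-1.06 (SE 0.31)) belong to the cytoskeleton, Scfd1 (-1.42 (SE 0.42)) to vesicle transport and Gtf2i (-1.19 (SE 0.37)) to transcription. Their medians over draws were closer to 0 than these values for each of the 9, at -0.50 for Mrps17, -0.20 for Clybl and -0.54 for Samm50. For most of them the direction depended on the draw. Scfd1 was above 0 in 9 of 23 draws, Clybl in 8, Sept7 in 7, Mrpl54 in 6, Dstn in 4 and Mrps17 in 2. Gtf2i was above 0 in 7 of 21 draws and Samm50 in 4 of 22. Aldh5a1 was tested in only 3 draws, below 0 in each. From 1 cell came 40% of the UMIs of Aldh5a1, and likewise 39.0% of those of Scfd1.

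**Figure D4:**
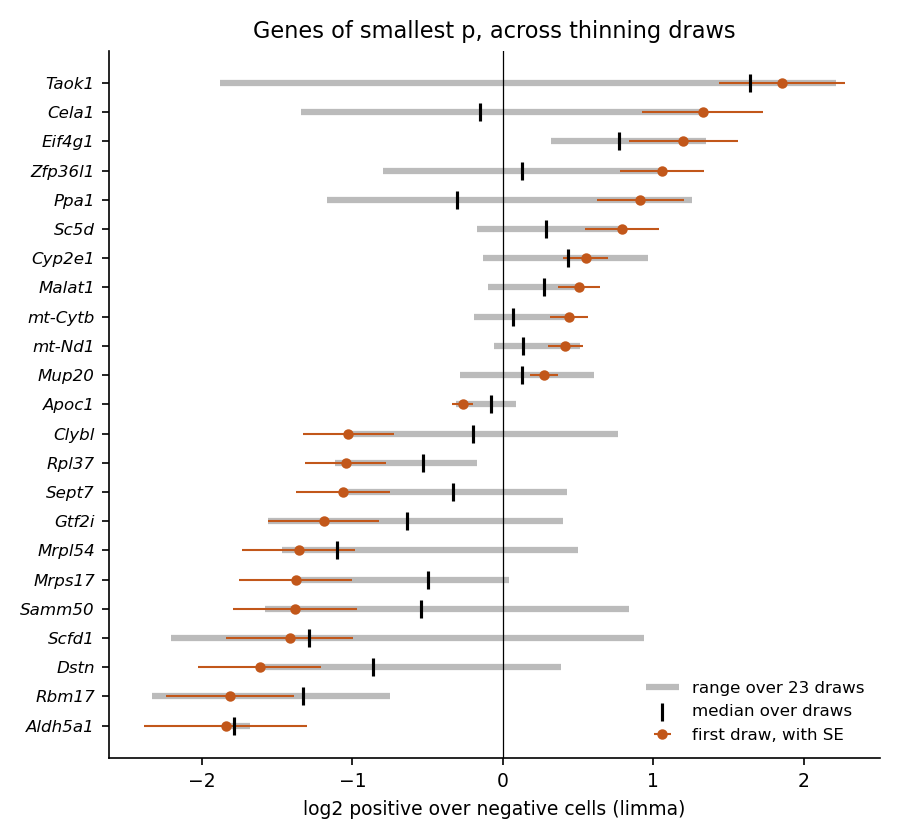
Log2 difference of positive over negative cells for 23 of the 24 genes of smallest p, with the SE of the first draw (points and whiskers), the median over draws (ticks) and the range over up to 23 draws (grey bars). The bars of Taok1, Cela1 and Ppa1 reach far across 0, while those of Eif4g1 and Rpl37 stay on one side.

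Gene groups of lipid storage, the biology the 2 marker genes belong to, lay near 0. Of 30 lipid droplet genes listed besides the pair, 12 were tested, 7 above and 5 below 0, with a median log2 difference of 0.09 and 0 called, beside 0.01 over all genes tested. Their median over draws ranged from -0.03 to 0.25. Hsd17b13, a droplet-bound dehydrogenase, stood at 450.2 against 412 CPM in HFD mouse 2 and 973 against 849.5 CPM in HFD mouse 3 in positive against negative cells. Ces1d, a triglyceride hydrolase, stood at 589 against 525 CPM in HFD mouse 2 and 486 against 586 CPM in HFD mouse 3. The lowest value was that of Mgll, the lipase of monoglycerides, at 199.8 against 352 CPM in HFD mouse 2 and 378 against 410.1 CPM in HFD mouse 3. Its log2 difference was -0.71 (SE 0.26), and it was below 0 in 23 of 23 draws with a median of -0.45. Cideb, a droplet protein of hepatocytes, was above 0 in 22 of 23 draws with a median of 0.32. Pnpla2, Plin4, Plin5, Cidea and Cidec had too few UMIs to be tested.

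In the draw reported, PPAR alpha targets divided evenly, with 11 above and 13 below 0 of 24 tested and a median of -0.02. Over 23 draws the list median ran from -0.11 to 0.25 with a middle value of 0.10, and it was above 0 in 18. Fabp1, the liver fatty acid binding protein, stood at 54651 against 60758 CPM in HFD mouse 2 and 38586 against 45377 CPM in HFD mouse 3, a log2 difference of -0.18 (SE 0.07) that had a median of -0.01 over draws. Acaa1b, a peroxisomal thiolase of fatty acid oxidation, stood at 2307 against 1847 CPM in HFD mouse 2 and 3729 against 2461 CPM in HFD mouse 3. Its log2 difference was 0.39 (SE 0.14) with an adjusted p of 0.705 in limma voom. It was above 0 in 23 of 23 draws with a median of 0.39, and at an unadjusted p under 0.05 in 19. Cyp4a14, a fatty acid hydroxylase, stood at 344 against 239 CPM in HFD mouse 2 and 216 against 410.1 CPM in HFD mouse 3, so the mice went opposite ways. Cpt1a and Ppara, at log2 differences of -0.22 (SE 0.31) and -0.07 (SE 0.37), were both within 1 SE of 0.

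Of 31 fatty acid oxidation genes tested, 21 were above and 10 below 0, with a median of 0.12, at 0.09 in HFD mouse 2 and -0.11 in HFD mouse 3. In LFD mice the median was 0.01. Over 23 draws the list median of the HFD mice ran from -0.03 to 0.32 with a middle value of 0.14, and it was above 0 in 22. Crot, which moves shortened acyl chains out of peroxisomes, had the lowest value at 879 against 1186 CPM in HFD mouse 2 and 486 against 967 CPM in HFD mouse 3. Of 10 genes of fatty acid uptake and binding, 5 were above and 5 below 0 (median -0.01). Slc27a5, a bile acid and fatty acid CoA ligase, stood at 504 against 323 CPM in HFD mouse 2 and 865 against 703 CPM in HFD mouse 3, a log2 difference of 0.56 (SE 0.21) that was above 0 in 23 of 23 draws with a median of 0.22. Its LFD values were 503 against 721 CPM in LFD mouse 1 and 819 against 894 CPM in LFD mouse 2.

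Of 13 lipogenesis genes tested, 7 were above and 6 below 0, with a median of 0.17. Scd1, the stearoyl-CoA desaturase, stood at 1188 against 1734 CPM in HFD mouse 2 and 2432 against 967 CPM in HFD mouse 3, opposite directions in the 2 mice. Fasn, the fatty acid synthase, stood at 250.4 against 422 CPM in HFD mouse 2 and 216 against 234 CPM in HFD mouse 3, with a log2 difference of -0.70 (SE 0.24) and 1 cell holding 14.3% of its UMIs. Fasn was above 0 in 8 of 23 draws, with a median of -0.47, and stood at 0.55 on the log2 scale with 2500 UMIs per cell. Thrsp, a lipogenic regulator that responds to thyroid hormone, stood at 389 against 356 CPM in HFD mouse 2 and 1189 against 703 CPM in HFD mouse 3 and was above 0 in 22 of 23 draws.

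Cholesterol synthesis and uptake was the list of 3 or more tested genes with the second highest median. All 7 members that passed the filter on low counts, of 25 listed, were above 0, with a median of 0.39 (0.31 in HFD mouse 2, 0.56 in HFD mouse 3) and 0 called. Besides Sc5d, given above, Hmgcs1, the synthase at the head of the pathway, stood at 365 against 309 CPM in HFD mouse 2 and 108 against 0 CPM in HFD mouse 3. The list median was above 0 in 23 of 23 draws, from 0.07 to 0.55, and it was -0.05 in the LFD mice. Single members were less steady. The 2 HFD mice had the same direction for 5 of the 7, beside 47.8% of all genes tested. Of the 6 members tested in every draw, 1 was above 0 in all of them (16.7%, beside 2.84% of all genes). The difference between diets was not tested for the list, and Sqle and Srebf2 had too few UMIs.

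Lipoprotein assembly genes numbered 8 above and 11 below 0 of 19 (median -0.05). Apob, the structural protein of VLDL, stood at 477 against 679.6 CPM in HFD mouse 2 and 486 against 732 CPM in HFD mouse 3, a log2 difference of -0.52 (SE 0.19) that was below 0 in 23 of 23 draws with a median of -0.47. Apoa2, an HDL apolipoprotein, stood at 46153 against 52322 CPM in HFD mouse 2 and 57717 against 53199 CPM in HFD mouse 3, and Apoa4 at 392 against 408 CPM in HFD mouse 2 and 594 against 732 CPM in HFD mouse 3. Of these 3, Apob and Apoa4 were lower in the positive cells of both mice, and Apoa2 in those of HFD mouse 2.

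The 6 mitochondrially encoded mRNAs that were tested were all above 0, with a median of 0.41 and 0 called. mt-Cytb, of complex III, stood at 6042 against 4101 CPM in HFD mouse 2 and 7998 against 7382 CPM in HFD mouse 3, and mt-Nd1, of complex I, at 3666 against 2751 CPM in HFD mouse 2 and 5837 against 4306 CPM in HFD mouse 3. The median ratio was 0.48 in HFD mouse 2 and 0.03 in HFD mouse 3, and over draws the list median ran from -0.13 to 0.42 with a middle value of 0.08, so the draw reported here lay near the top. Mitochondrial ribosomal RNA went the other way in HFD mouse 2, with mt-Rnr1 at 2491 against 3374 CPM and mt-Rnr2 at 35331 against 40737 CPM. In HFD mouse 3 mt-Rnr1 stood at 2918 against 2871 CPM and mt-Rnr2 at 29075 against 24256 CPM. The nuclear genes of oxidative phosphorylation numbered 29 above and 42 below 0 of 71, with a median of -0.07. Ndufa4 (0.06 (SE 0.13)) and Uqcrq (-0.23 (SE 0.13)) were the 2 of highest CPM.

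Along the lobule axis, 9 of 19 pericentral genes were above 0 (median -0.02), as were 12 of 26 periportal genes (median -0.01). Glul, the glutamine synthetase of the hepatocytes nearest the central vein, stood at 93.2 CPM in positive and 366 CPM in negative cells of HFD mouse 2 and was at 0 in both classes of HFD mouse 3. Its UMIs came from 9 positive and 13 negative cells. Of those in each class, 1 positive cell held 77.1% and 1 negative cell held 39.7%. The log2 difference of -1.79 (SE 0.38) had a median of -0.42 over draws and was above 0 in 5 of 23. Sds, the periportal serine dehydratase, stood at 224 against 108 CPM in HFD mouse 2 and 919 against 703 CPM in HFD mouse 3 and was above 0 in 22 of 23 draws.

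Of 48 drug metabolism genes, 32 were above and 16 below 0 (median 0.11), and of 19 bile acid genes 14 were above and 5 below (median 0.19, at 0.16 in HFD mouse 2 and -0.08 in HFD mouse 3). Mgst1, a microsomal glutathione transferase, stood at 7899 against 6936 CPM in HFD mouse 2 and 8701 against 8408 CPM in HFD mouse 3. Of 13 major urinary protein genes, 8 were above and 5 below 0 (median 0.04), with Mup17 at 1596 against 839 CPM in HFD mouse 2 and 0 against 87.9 CPM in HFD mouse 3 and Mup1 at 618 against 1078 CPM in HFD mouse 2 and 162 against 117 CPM in HFD mouse 3. The urea cycle and amino acid list had 22 above and 25 below 0 of 47 (median -0.02). Otc, the ornithine transcarbamylase of the urea cycle, stood at 783 against 1158 CPM in HFD mouse 2 and 162 against 762 CPM in HFD mouse 3, a log2 difference of -0.64 (SE 0.22) below 0 in 23 of 23 draws.

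The secretory and stress groups were centred close to the value of all genes. Medians were 0.10 for 18 acute phase genes, 0.02 for 39 complement and coagulation genes and 0.04 for 18 plasma carriers. Alb stood at 43417 against 41088 CPM in HFD mouse 2 and 44099 against 43942 CPM in HFD mouse 3 and Ttr at 28580.4 against 30482 CPM in HFD mouse 2 and 31020.3 against 33220.1 CPM in HFD mouse 3. Medians were 0.13 for 18 genes of glucose metabolism, -0.04 for 15 of the unfolded protein response, 0.00 for 11 immediate early and heat shock genes and 0.00 for 10 of interferon response and antigen presentation. They were 0.02 for 16 antioxidant genes, -0.02 for 34 ribosomal proteins and 0.07 for 9 hepatocyte transcription factors. The 2 clock genes tested, Bhlhe40 and Tef, had 0.84 (SE 0.45) and 0.65 (SE 0.64). Bhlhe40 passed the filter on low counts through its positive sums only, the class in which it is high, and its place above 0 is no support. It was above 0 in 13 of the 18 draws in which it was tested. Tef, from 22 UMIs, was above 0 in 2 of 5 such draws, with a median of -0.62. Within the unfolded protein response, Manf, a secreted ER stress factor, stood at 93.2 against 220.3 CPM in HFD mouse 2. In HFD mouse 3 it stood at 54.0 against 29.3 CPM, which is 1 UMI in each class. Its log2 difference was -1.08 (SE 0.38), below 0 in 23 of 23 draws. Across the 27 lists 0 members were called.

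**Figure D5:**
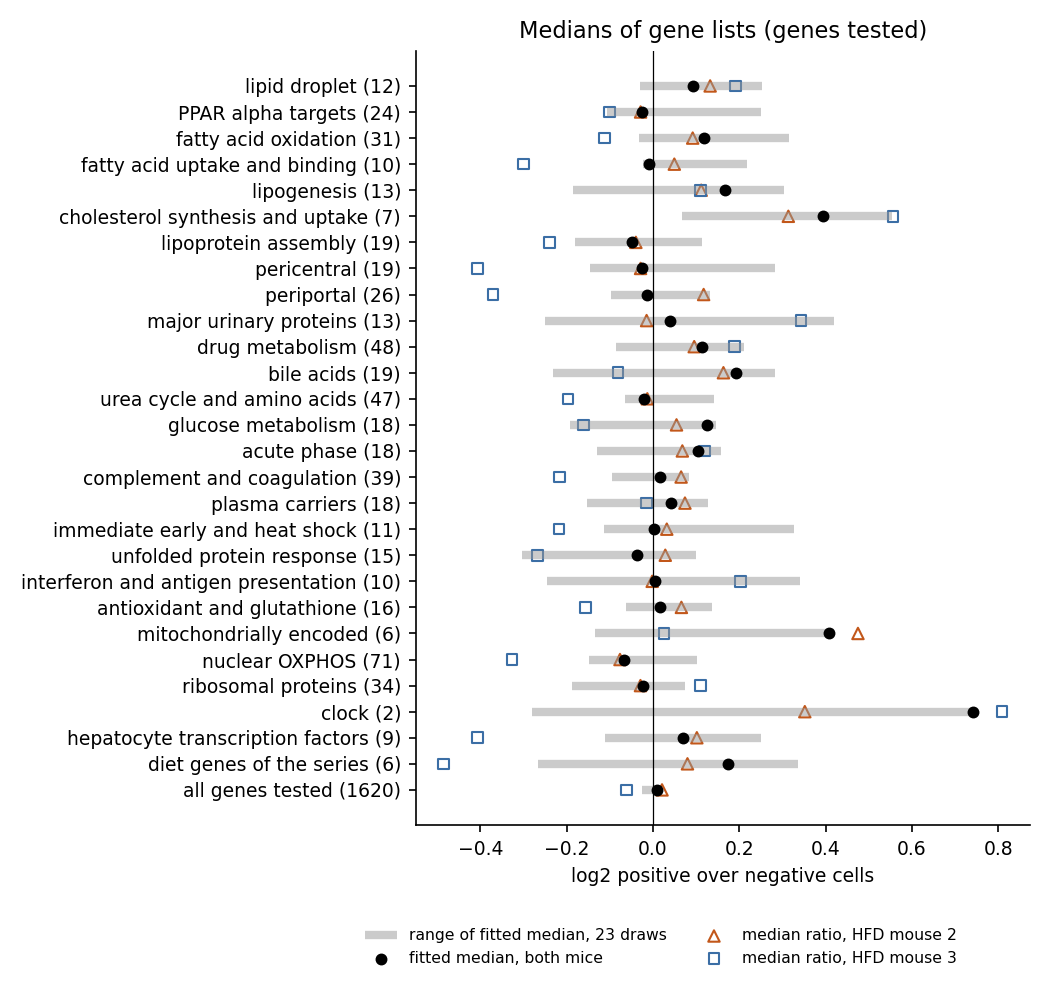
Median log2 ratio of positive over negative cells for 27 gene lists and for all genes tested (number tested in brackets): fitted over both mice (black), in each mouse (triangles and squares) and as a range over 23 draws (grey). Cholesterol synthesis and uptake is the one list of 3 or more tested genes whose range stays above 0, from 0.07 to 0.55.

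Of 8 genes that differ between the diets in this series, 6 were tested here, 3 above and 3 below 0 (median 0.18). They were picked from these same mice. Cyp3a11, a drug-metabolising cytochrome P450, stood at 115 against 108 CPM in HFD mouse 2 and 1243 against 58.6 CPM in HFD mouse 3, and all 23 UMIs in positive cells of HFD mouse 3 came from 1 cell. Cyp2c70, which makes muricholic acids in mice, stood at 171 against 103 CPM in HFD mouse 2 and 108 against 205 CPM in HFD mouse 3 and was above 0 in 11 of 23 draws. Serpina3k, a serine protease inhibitor of plasma, stood at 3924 against 4110.2 CPM in HFD mouse 2 and 3297 against 2812 CPM in HFD mouse 3. The 3 genes named here had 0 calls, and Serpina3k and Orm1, an acute phase carrier, were below 0 in 23 of 23 draws by medians of -0.12 and -0.30.

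The same split in the 2 LFD mice also gave 0 called genes of 2294 (0.0%), with 163 at an unadjusted p under 0.05. The difference of the effect between diets was tested directly, and 0 of 3066 genes passed (0.0%), with 132 at an unadjusted p under 0.05. In the other planned thinning draws, draw 2 and draw 3, the same test called 6 and 3 genes. Among the 5 genes of smallest p were Lmbrd2, Polr3c, Gtf3a and Ifih1, with differences of -4.43, -3.61, -4.00 and -2.78, each from few UMIs.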

How the data were processed

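Drop-seq libraries of 5 mice were used, whose titles give the diet, and the start of a cell's column name gives its mouse. STAR 2.6.0a and the build mm10 are named, per the submitters' processing notes. Cell filter, annotation, doublet treatment, strand and the handling of shared reads were not given in the sources used here, so overlapping, antisense and near-identical genes (Mup, Cyp) are uncertain, and no doublet caller was run. The table deposited by the authors holds the natural log of 1 plus UMIs per 10000 for 454 cells and 18018 genes, as its values show. Dividing back-transformed values by each cell's lowest nonzero value gave whole UMIs for 100% of entries (tolerance 0.001). A second, smoothed table deposited by the authors on the natural log scale was not used, and 0 columns were left unmapped.

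Cells were thinned without replacement to 1532 UMIs, the 25th percentile of HFD mice 2 and 3. All UMIs of each kept cell, Plin2 and G0s2 excepted, were summed per mouse and class. Genes needed 80.8 CPM in at least 2 sums and 15 UMIs in total. limma voom (limma 3.58.1, R 4.3.3) was fitted with trimmed-mean factors, mouse as a block and Benjamini-Hochberg adjustment at 0.05. The unit is a log and not a count, so no count model was run. Thinning, summaries and intervals used Python 3.11.15, NumPy 2.4.6 and SciPy 1.17.1. The fitting code was also run on simulated sums with known changes. Those sums had counting error only, with no spread between mice or cells, so that run does not show how the fit behaves on these data. Each mouse contributes both classes, which pairs the sums. Mean deposited log values and other draws, totals, class rules, filters and cells were alternatives.

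The marker pair, gene lists and rules were chosen with earlier results of these data known. Named genes are, in each direction, the 12 of smallest p with at least 20 UMIs and the same direction in both mice. Each list adds the 2 of highest CPM and the 1 of smallest p, and the diet difference the 5 of smallest p. Predicted models were passed over, and some genes that the rule names are not reported here. Crot, Cideb, Cpt1a, Ppara, Cyp4a14, Cyp3a11, Hmgcs1, Apob, Mup17, Orm1, Parp1 and the mt-Rnr genes lie outside that rule and were named after their values were seen. The counting intervals are exact and 95%.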

Additional observations from a re-analysis of the deposited data

How the results depend on the processing

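The count of 0 called genes in HFD was 0 under most alternatives, among them totals of 1000 and 2500 UMIs, positive calls from Plin2 or G0s2 alone, undrawn UMIs, no trimmed-mean factors, either filter, limma-trend, mean log values, 8 sums of 4 mice, HFD mouse 1 added and sums per side of the lobule axis. The HFD mouse 1 fit held 397 genes, its negative class was 1 cell and its median log2 difference was 0.92. Without HFD mouse 2 or without HFD mouse 3 the count ranged from 0 to 0. It was 16 in the second planned draw (2 higher, 14 lower), 1 with 2 or more UMIs of the pair (Cyp3a11), 2 from thinned UMIs (Mup17, mt-Cytb) and 17 without the 5% of cells with most UMIs (6 higher, 11 lower), and the 3 genes called in both the second draw and the last of these had opposite directions. With 8 sums of 4 mice, combined after seeing the data with another setting, it was 39 in the second draw (3 higher, 36 lower), 11 in the third, 6 at 1000 UMIs and 0 with undrawn UMIs. Over the 20 draws added after seeing the data it had a median of 0 and a highest value of 13, with 108 to 321 genes at an unadjusted p under 0.05, and 41 genes were called in any of 23 draws, Parp1 most often (4). limma's estimate of prior degrees of freedom was 5.85 in the draw reported. It was infinite in 3 of 23 draws, all 3 with calls, and finite in 20, 4 of them with calls. Leaving out the replicate block gave 0 calls in both diets, with 145 genes at an unadjusted p under 0.05 in HFD. In LFD mice a total of 1000 UMIs gave 11 calls and the third draw with 8 sums of 4 mice gave 4. The diet difference gave 6 calls in the second draw and 3 in the third, all lower, and 0 at 1000 UMIs, with undrawn UMIs, with no trimmed-mean factors and without each mouse in turn. Leaving out cells with marker UMIs of other cell types as planned was not run, since Clu would have removed 150 of 175 cells. Without Clu, chosen after seeing the data, 5 cells were left out and 0 genes called.

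The share of positive cells was 45.1% at 1000 UMIs and 80.0% at 2500 UMIs in HFD mouse 2. With 2500 UMIs the value for HFD mouse 3 was 66.7%, that for LFD mouse 1 was 50% and that for LFD mouse 2 was 36.0%.

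Of 410 values of the 24 genes of smallest p, 18 had the other sign and 10 passed the threshold, 1 of them with the other sign (Taok1 in the second draw). The cause was not tested. In the second draw Taok1 was at -1.82, Zfp36l1 at -0.41, Cela1 at -1.34 and Ppa1 at -0.87. In the third, Zfp36l1 was at -0.26, mt-Cytb at -0.086, Cela1 at -0.96 and Ppa1 at -0.53. At 1000 UMIs Taok1 was at -1.40, Zfp36l1 at -0.030, Cela1 at -0.32, Ppa1 at -0.49 and Mup20 at -0.018, and at 2500 UMIs Sc5d was at -0.029 and Clybl at 0.56. Mup20 was at -0.20 with 2 or more UMIs of the pair, and mean log values put Cyp2e1 at -0.29 and Scfd1 at 0.14. Of 1161 values of the 56 further genes named from lists, 312 moved by more than 1 SE and 220 had the other sign.

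Depth limits the comparison most in HFD mouse 3, whose positive class is 7 cells.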

Other observations

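Over 23 thinning draws, 1305 genes other than predicted models were tested in each draw, and 37 of them were above 0 and 81 below 0 in every draw. The draws reassign only part of the cells, so they are not independent and give no test. These genes and the lists below were chosen after their values were seen, and other lists had like shares. Above 0 in every draw were 2 of 10 genes of fatty acid uptake and binding (20%) and 2 of 16 antioxidant genes (12.5%), beside 2.84% of all genes. Below 0 in every draw were 3 of 18 acute phase genes (16.7%) and 2 of the 6 diet genes of this series (33.3%), beside 6.21% of all genes. On the higher side were 6 of the 31 tested genes of fatty acid oxidation (19.4%, beside 2.84% of all genes). They were the thiolases Acaa1a, Acaa1b and Acaa2, with median log2 differences over draws of 0.57, 0.39 and 0.18, and Acadvl (0.43), Decr1 (0.44) and Scp2 (0.26). In the draw reported, Acadvl, Decr1 and Scp2 stood at 0.14 (SE 0.23), 0.06 (SE 0.26) and 0.07 (SE 0.21), within 1 SE of 0. The mice went opposite ways for Acaa1a, at 192 against 112 CPM in HFD mouse 2 and 270.2 against 322 CPM in HFD mouse 3 in positive against negative cells. They did so for Acaa2 too, at 1169.5 against 984 CPM in HFD mouse 2 and 1189 against 1289 CPM in HFD mouse 3.

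On the lower side were 3 of 14 tested genes of the unfolded protein response, Manf, Pdia6 and Dnajb11 (21.4%, beside 6.21% of all genes). The medians of these 3 over draws were -1.08, -0.34 and -0.86. In the draw reported, Dnajb11 stood at -0.20 (SE 0.43), within 1 SE of 0. The mice went opposite ways for Dnajb11, at 90.6 against 127 CPM in HFD mouse 2 and 324 against 117 CPM (6 and 4 UMIs) in HFD mouse 3. They did so for Manf too, with 1 UMI in each class of HFD mouse 3. Erp44, another chaperone of the early secretory pathway that the list does not hold, stood at 79.9 against 164 CPM in HFD mouse 2 and 108 against 117 CPM in HFD mouse 3, a log2 difference of -0.92 (SE 0.35) with a median of -1.24 over draws and an unadjusted p under 0.05 in 23 of 23. Fah, of tyrosine breakdown, stood at 405 against 605 CPM in HFD mouse 2 and 216 against 469 CPM in HFD mouse 3 with a median of -0.43. Of these genes, 0 passed the test in the draw reported.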
